A study of Mus musculus with 12 samples.

Results

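The genes described here are 10 contractile, matrix and calcium-binding genes, Acta2, Tagln, Cald1, Tpm1, Myl9, Thbs1, Fn1, Sparc, Col6a1 and S100a11, out of 39174 genes listed in each table. They were chosen by name, because an earlier reading of the same libraries found them at a high level on the axonal side. Their difference between the compartments therefore chose them, and it is given below as a description, with no test. All 10 passed the filter on low values (a mean of at least 1 scaled FPKM over the 12 libraries), Col6a1 only through its axonal libraries.

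The libraries came from primary cultures of CD-1 mouse motoneurons with a knockdown of Smn, grown in microfluidic chambers that let axons grow into a compartment apart from the cell bodies and dendrites. Total RNA was taken from the axonal compartment (6 libraries) and from the somatodendritic compartment (6 libraries). The Smn knockdown is common to both groups, and no library without it was analysed here. Smn1 was listed at 0 to 56.2 scaled FPKM in axonal and at 0 to 15.6 scaled FPKM in somatodendritic libraries, where it was at 0 in 4, and in the absence of an unperturbed library this is no check of the knockdown. The labels number the replicates but do not say whether they are separate cultures, so p-values measure only the spread between these libraries, which may be technical.

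Acta2, Tagln, Cald1, Tpm1 and Myl9 encode parts or partners of the actin filament that are abundant in smooth muscle, and that many other cells use in stress fibres. Thbs1, Fn1, Sparc and Col6a1 encode secreted matrix proteins, which in nervous tissue are made mainly by glia, meninges, vessels and fibroblasts. Many of these genes are known targets of serum response factor, which binds the CArG box, and of YAP, which acts through the TEAD proteins that bind GGAATG.

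FPKM is a level per transcript length and per library total, so levels of different genes can be set side by side. Values below are FPKM after each library was scaled to a common median ratio, and differences are axonal minus somatodendritic means of log2(scaled FPKM + 1). The depth in reads is unknown. Libraries had 11088 to 14620 genes at 1 FPKM or more in the axonal group and 7273 to 12308 in the somatodendritic group, and mitochondrial genes took 9.71% to 53.5% of FPKM in the axonal group against 10.4% to 12.0% in the somatodendritic group. If the authors' confidence bounds lie 2 counting SDs from the value, their width gives whole numbers of fragments (within 0.05) for Acta2 in 8 of 12 libraries, but in 2 for Thbs1 and Tpm1 and in 0 for Tagln, Fn1 and Sparc, so the reading is not established. On it Acta2 rested on 5 to 192 fragments in axonal libraries and on 1.99 to 11 in somatodendritic libraries. In bulk RNA of this kind, fewer cells of a type and less RNA per cell cannot be told apart.

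The members spanned a wide range of levels in the axonal libraries. Sparc had the highest axonal mean, above that of 99.6% of the protein-coding genes tested, followed by Acta2 (98.0%), Tpm1 (97.5%), Thbs1 (96.3%) and Tagln (95.2%). S100a11 and Fn1 (94.6% each), Cald1 (91.8%) and Myl9 (86.4%) came next. Col6a1 stood above only 17.4%, so the shared high axonal level does not hold for it. The spread between libraries was wide, and neighbours in this order from Acta2 to Myl9 lay within one another's SDs. On the somatodendritic side Sparc (97.7%) and Tpm1 (90.9%) were also high, whereas the other members lay between 2.35% and 71.7%.

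**Figure D1:**
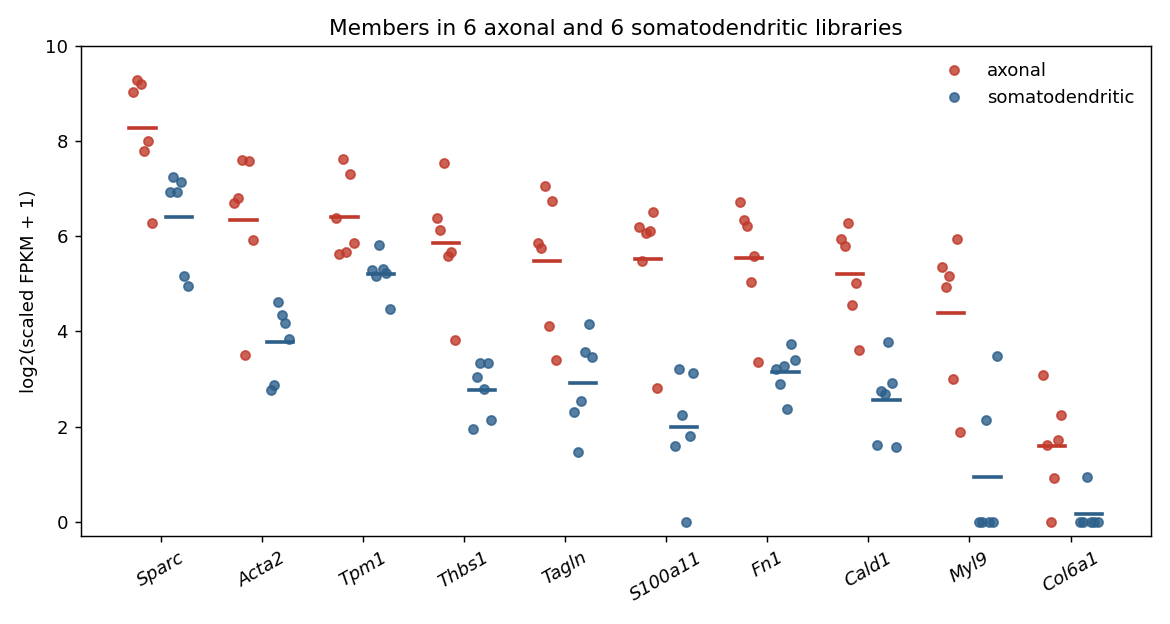
Level of each member, as log2(scaled FPKM + 1), in 6 axonal libraries (red, left of each pair) and 6 somatodendritic libraries (blue, right); points are libraries and bars are means. Sparc stands highest on both sides, the ranges of Thbs1 alone do not overlap, and Col6a1 stays low on both sides.

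Acta2 encodes smooth muscle alpha actin (chr19:34241090-34255336 on GRCm38). Acta2 levels across axonal replicates 1 to 6 were 102, 111, 192, 10.3, 191 and 59.96 scaled FPKM. Acta2 had 5.83, 6.30, 23.6, 19.3, 17.0 and 13.3 scaled FPKM across the 6 somatodendritic replicates in the same order. The axonal libraries lay above every somatodendritic one except for axonal replicate 4, which fell among them, so the groups overlapped. The means were 111 ± 71.8 scaled FPKM on the axonal side and 14.2 ± 7.15 on the somatodendritic side (SD, n = 6 each), a log2 difference of 2.58. Of the other muscle actins, Acta1 averaged 1.63 ± 1.86 scaled FPKM on the axonal side and 5.44 ± 11.1 on the somatodendritic side (SD, n = 6 each). Actc1 reached at most 4.49 scaled FPKM in an axonal library and was listed at 0 in the somatodendritic ones, and Actg2 was listed at 0 in all 12. Acta2 shared 0.326% of its 2146 stretches of 50 bases with other genes, among them the cytoplasmic actin gene Actg1 and the pseudogene Actg-ps1.

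Tagln encodes transgelin, an actin-bundling protein of smooth muscle (chr9:45929628-45936058). Tagln levels across axonal replicates 1 to 6 were 56.6, 52.9, 131, 16.2, 106 and 9.62 scaled FPKM. Tagln had 3.93, 1.77, 4.82, 10.9, 16.7 and 9.94 scaled FPKM across the 6 somatodendritic replicates in the same order. Axonal replicates 1, 2, 3 and 5 lay above every somatodendritic library, and axonal replicates 4 and 6 lay within the somatodendritic range. Its log2 difference was 2.57. Its paralog Tagln2 averaged 25.0 ± 23.2 scaled FPKM on the axonal side and 4.93 ± 3.77 on the somatodendritic side (SD, n = 6 each), whereas the neuronal paralog Tagln3 averaged 142 ± 33.5 on the axonal side and 129 ± 28.1 on the somatodendritic side. The Tagln gene overlaps Pcsk7, a proprotein convertase gene on the other strand, over 108 bases. Pcsk7 was at 0 to 6.56 scaled FPKM in axonal and at 2.74 to 9.10 scaled FPKM in somatodendritic libraries, and without the strand of the reads the 2 cannot be told apart in the shared bases. The same limit holds for the antisense gene Gm48529, also on the other strand, which overlaps Tagln over 3627 bases. Gm48529 has no values in these libraries.

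Cald1 encodes caldesmon, which binds actin and calmodulin (chr6:34598500-34775473). Cald1 levels across axonal replicates 1 to 6 were 60.2, 54.7, 76.8, 22.6, 31.3 and 11.2 scaled FPKM. Cald1 had 2.06, 5.72, 5.44, 12.8, 6.55 and 1.95 scaled FPKM across the 6 somatodendritic replicates in the same order. Of the axonal libraries only replicate 6 fell below the highest somatodendritic library. Its log2 difference was 2.65. The authors' lower bound for Cald1 was 0 in 4 axonal and in 6 somatodendritic libraries, and GENCODE lists 18 transcripts of the gene.

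Tpm1 encodes an alpha tropomyosin that lies along the actin filament in muscle and non-muscle cells (chr9:67022590-67049406). Tpm1 levels across axonal replicates 1 to 6 were 82.6, 48.8, 196, 49.6, 157 and 57.3 scaled FPKM. Tpm1 had 38.2, 34.7, 55.2, 38.9, 36.3 and 21.2 scaled FPKM across the 6 somatodendritic replicates in the same order. Axonal replicates 3 and 5 stood well above all somatodendritic libraries, replicates 1 and 6 less far above, and replicates 2 and 4 within their range. Tpm1 had the smallest log2 difference of the contractile members, 1.20, and the highest somatodendritic level among them. Another tropomyosin, Tpm4, averaged 21.8 ± 12.5 scaled FPKM on the axonal side and 5.47 ± 5.78 on the somatodendritic side (SD, n = 6 each), and Tpm3 averaged 40.5 ± 13.5 on the axonal side and 27.6 ± 3.23 on the somatodendritic side.

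Myl9 encodes the regulatory light chain of smooth muscle and non-muscle myosin (chr2:156775420-156781658). Myl9 levels across axonal replicates 1 to 6 were 39.7, 29.5, 34.9, 7.02, 60.7 and 2.70 scaled FPKM. Its somatodendritic values were 3.39 scaled FPKM in replicate 3, 10.2 in replicate 6, and a listed 0 in the other 4. Axonal replicates 4 and 6 fell below the highest somatodendritic library and the other 4 above it. With so many libraries listed at 0 no fold is given. The paralogs Myl12a and Myl12b, light chains of non-muscle myosin, had higher means on both sides. Myl12a averaged 54.3 ± 23.8 scaled FPKM on the axonal side and 23.9 ± 13.96 on the somatodendritic side, and Myl12b averaged 153 ± 25.1 on the axonal side and 173 ± 44.97 on the somatodendritic side (SD, n = 6 each).

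Promoter sequences were looked up in RefSeq (GRCm38.p6) for the members. Promoters were matched for 7 members, with 8 starts in all. Tagln, Thbs1 and Fn1 had no entry. Acta2 and Myl9 are shown because they are the members whose upstream bases hold matches to the CArG box. Each line gives the 250 bases before the RefSeq start, 5′ to 3′ on the strand of the gene. Acta2 lies at chr19:34255374-34255623 on the minus strand and Myl9 at chr2:156775214-156775463 on the plus strand. Capitals mark GGAATG and the CArG box, with 1 mismatch in its centre allowed.
Acta2: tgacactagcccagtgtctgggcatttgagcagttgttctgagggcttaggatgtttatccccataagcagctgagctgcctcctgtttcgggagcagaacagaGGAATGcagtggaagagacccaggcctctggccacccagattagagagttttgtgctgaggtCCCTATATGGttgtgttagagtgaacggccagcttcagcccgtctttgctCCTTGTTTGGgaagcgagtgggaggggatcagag
Myl9: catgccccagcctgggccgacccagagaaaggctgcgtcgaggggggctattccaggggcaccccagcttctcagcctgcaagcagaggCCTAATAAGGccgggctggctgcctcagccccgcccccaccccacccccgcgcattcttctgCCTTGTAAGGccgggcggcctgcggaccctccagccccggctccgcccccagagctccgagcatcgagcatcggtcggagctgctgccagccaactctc
In Myl9 the match that starts 161 bases before the start is a full CArG box, a motif found on either strand in 1.63% of the 32851 RefSeq promoters from 250 bases before to 50 after the start. The Myl9 match at 99 bases and the Acta2 matches at 84 and 34 bases before the start each have 1 mismatch, and 9.98% of all promoters hold a match when 1 is allowed. GGAATG, searched on both strands, occurs in 14.7% of all promoters and lies 146 bases before the start in Acta2, 153 bases before one start of Cald1 and 56 bases before that of Tpm1. Cald1 and Tpm1 are shown as 60 bases around it, at chr6:34598324-34598383 on the plus strand and chr9:67049237-67049296 on the minus strand, with GGAATG in capitals.
Cald1: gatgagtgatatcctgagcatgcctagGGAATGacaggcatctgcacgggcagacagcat
Tpm1: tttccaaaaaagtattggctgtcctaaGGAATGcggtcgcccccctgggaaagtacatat
TATAAA was found in 13.6% of all promoters and, among the members, 186 bases before the other start of Cald1. The promoters of Sparc, Col6a1 and S100a11 held none of these motifs in the window searched. A match is a description of the sequence and not a site of binding.

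Thbs1 encodes thrombospondin 1, a secreted glycoprotein that astrocytes release and that activates latent TGF-beta (chr2:118111876-118127133). Thbs1 levels across axonal replicates 1 to 6 were 82.6, 69.5, 186, 47.2, 50.2 and 13.04 scaled FPKM. Thbs1 had 2.84, 7.20, 9.14, 5.89, 9.06 and 3.37 scaled FPKM across the 6 somatodendritic replicates in the same order. Every axonal library was above every somatodendritic library, which held for no other member. The ranges of 1 of the 10 members thus did not overlap, where 0.418% of the 14122 genes tested had all axonal libraries above all somatodendritic ones. Its log2 difference was 3.10, with means of 74.7 ± 59.3 scaled FPKM on the axonal side and 6.25 ± 2.73 on the somatodendritic side (SD, n = 6 each). Its paralog Thbs2 averaged 3.26 ± 4.75 scaled FPKM on the axonal side and 0.106 ± 0.261 on the somatodendritic side (SD, n = 6 each), and Thbs3 averaged 7.51 ± 9.88 on the axonal side and 5.69 ± 10.5 on the somatodendritic side.

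Fn1 encodes fibronectin, which links cells to the matrix through integrins (chr1:71585523-71653171). Fn1 levels across axonal replicates 1 to 6 were 105, 79.7, 72.8, 31.9, 47.1 and 9.18 scaled FPKM. Fn1 had 8.25, 6.42, 8.73, 4.14, 12.3 and 9.48 scaled FPKM across the 6 somatodendritic replicates in the same order. Axonal replicate 6 fell within the somatodendritic range and the other 5 axonal libraries lay above it. Its log2 difference was 2.40. Of the 36 pairs of an axonal with a somatodendritic library, the axonal lower bound of Fn1 lay above the somatodendritic upper bound in 30. The same count was 29 for Acta2, 27 for Thbs1, 23 for Sparc, 22 for Tagln, 18 for S100a11, 13 for Tpm1, 8 for Myl9, 5 for Col6a1 and 2 for Cald1.

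Sparc encodes osteonectin, a secreted collagen-binding glycoprotein that glia also make (chr11:55394500-55420080). Sparc levels across axonal replicates 1 to 6 were 526, 626, 589, 219.7, 255 and 76.6 scaled FPKM. Sparc had 120.1, 152, 121, 139.6, 35.1 and 30.02 scaled FPKM across the 6 somatodendritic replicates in the same order. All axonal libraries but replicate 6 lay above the highest somatodendritic library. Its log2 difference was 1.87. Sparc made up 25.8% to 56.0% of the summed level of the 10 members in axonal libraries and 25.9% to 68.3% in somatodendritic libraries. Its paralog Sparcl1, an astrocyte gene, averaged 72.6 ± 31.6 scaled FPKM on the axonal side and 113 ± 41.6 on the somatodendritic side (SD, n = 6 each).

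Col6a1 encodes a chain of collagen VI (chr10:76708792-76726168). Col6a1 levels across axonal replicates 1 to 6 were 7.45, 2.05, 0, 0.897, 2.27 and 3.72 scaled FPKM. Its somatodendritic value was 0.931 scaled FPKM in replicate 3 and a listed 0 in the other 5. Axonal replicates 3 and 4 lay below that one somatodendritic value. The other chains of the same collagen trimer, Col6a2 and Col6a3, were near 0 as well. Col6a2 was listed at 0 in 5 axonal libraries and in all somatodendritic ones, and reached 1.06 scaled FPKM in an axonal library. Col6a3 was listed at 0 in 4 axonal libraries and in all somatodendritic ones, and reached 0.832 scaled FPKM in an axonal library.

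S100a11 encodes a calcium-binding protein of the S100 family that takes part in membrane repair (chr3:93520488-93526287). S100a11 levels across axonal replicates 1 to 6 were 72.2, 43.8, 66.4, 68.4, 89.6 and 5.97 scaled FPKM. S100a11 had 2.03, 8.24, 3.74, 0, 2.47 and 7.71 scaled FPKM across the 6 somatodendritic replicates in the same order. Axonal replicate 6 fell among the somatodendritic libraries and the other 5 axonal libraries stood far above them. S100a11 had a log2 difference of 3.53. The value is uncertain, since 41.1% of its 462 stretches of 50 bases occur also in other genes, all of them in the pseudogene Gm12854. Gm12854 was listed at 0 to 104.5 scaled FPKM in axonal and at 0 to 6.43 scaled FPKM in somatodendritic libraries, and the sources used here do not give how reads with several matches were assigned.

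**Figure D2:**
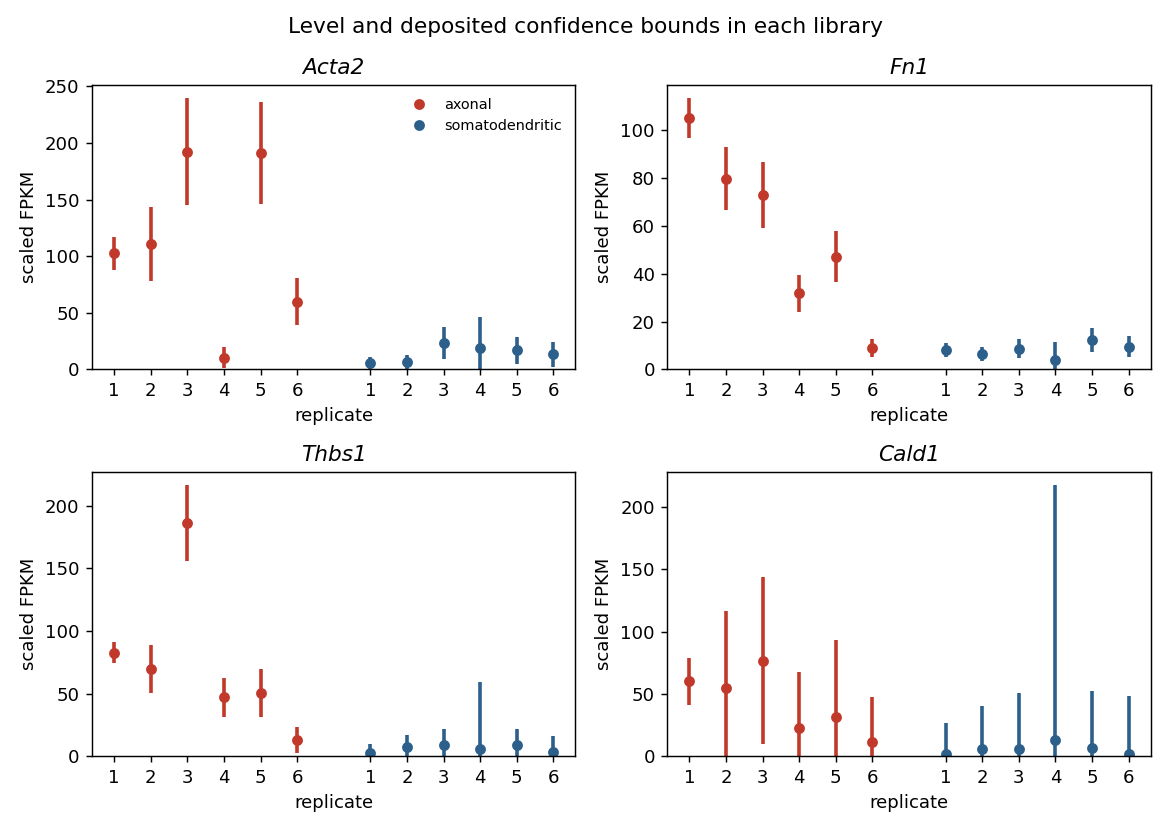
Scaled FPKM of Acta2, Fn1, Thbs1 and Cald1 in axonal (red, left) and somatodendritic (blue, right) replicates 1 to 6; points are levels and lines run between the authors' scaled lower and upper confidence bounds. Axonal bounds lie above somatodendritic ones in 30 of 36 pairs for Fn1, and bounds reach 0 for Cald1 in 4 axonal and all 6 somatodendritic libraries.

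Over the 10 members the median log2 difference was 2.58, with a range of 1.20 to 3.53, beside a median of 0.20 over all 14122 genes tested. The values of Myl9 and Col6a1 in it rest on libraries listed at 0. The median was 2.58 over the 5 contractile and 2.13 over the 4 matrix members. A log2 difference of at least 2 was reached by 7 of the 10 members and by 1.15% of all genes tested, and this difference is what chose the members. Replicates 1 and 2 of both compartments had 5.61% to 8.68% of FPKM in short non-coding RNA, against 12.9% to 22.0% in replicates 3 to 6, although the labels name no batch. Within replicates 1 and 2 alone the median of the members was 3.58 (Myl9 and Col6a1 included, which were listed at 0 in both somatodendritic libraries), beside 0.09 over all genes, and within replicates 3 to 6 it was 1.90, beside 0.18 over all genes.

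The members were not equally high in all axonal libraries. Their summed level across axonal replicates 1 to 6 was 1135, 1117, 1544, 474, 989.8 and 249.2 scaled FPKM. Across the 6 somatodendritic replicates the sum was 183, 222, 236, 231, 135 and 107 scaled FPKM. Axonal replicates 1, 2, 3 and 5 thus held the members at a high level, replicate 4 at a middle level, and replicate 6 only just above the somatodendritic range. Axonal replicate 6 was the lowest axonal library for 7 of the 10 members, and axonal replicate 3 the highest for 5. In axonal replicates 1 and 5 all 10 members lay above the highest somatodendritic library, in replicates 2 and 3 it was 9 members, in replicate 4 it was 5, and in replicate 6 it was 4. The contractile members together held 342, 296, 631, 106, 545 and 141 scaled FPKM in axonal libraries 1 to 6, and the 4 matrix members 721, 777, 847, 299.7, 355 and 103. The matrix sum was the larger in axonal replicates 1 to 4 and the contractile sum in replicates 5 and 6. Without axonal replicate 6 the median log2 difference of the members was 2.90.

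**Figure D3:**
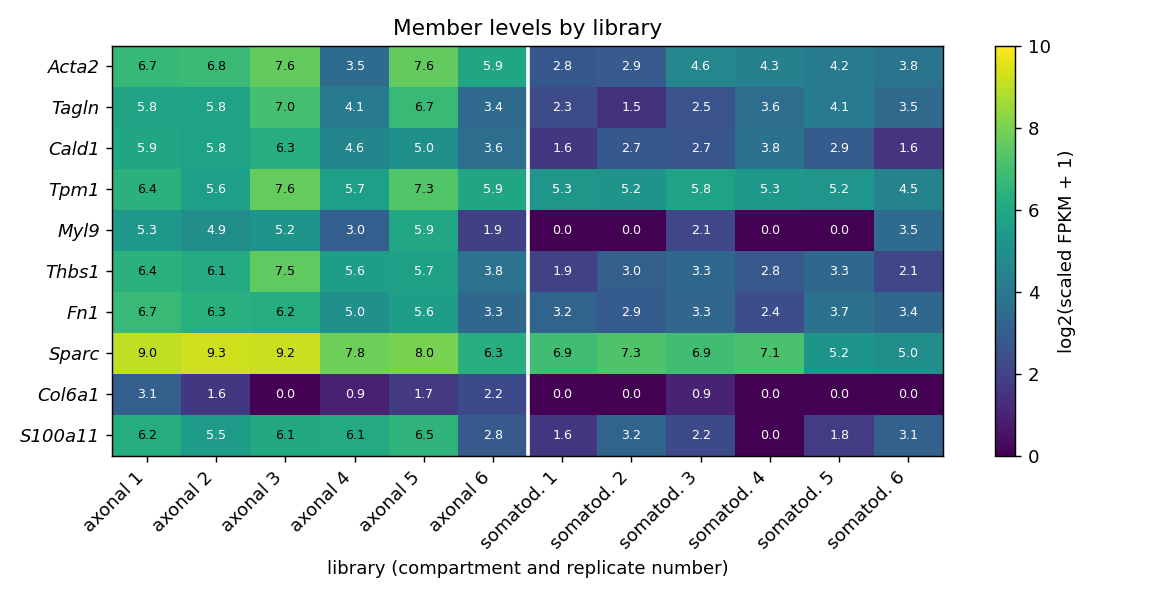
Level of each member (rows) as log2(scaled FPKM + 1) in each library (columns; 6 axonal left, 6 somatodendritic right), with the value printed in each cell. Axonal replicates 1, 2, 3 and 5 are high for most members, whereas axonal replicates 4 and 6 are closer to the somatodendritic libraries.

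Markers of the cells that could be present were measured beside the members. Pan-neuronal markers, led by Gap43 and Tubb3, were all above 0 in all libraries and summed to 1655 to 2213 scaled FPKM in axonal and 2015 to 2570 scaled FPKM in somatodendritic libraries. Of the motoneuron markers, Mnx1 and Chat were listed at 0 in all 12 libraries, and the list, led by Ret and Lhx4, summed to 2.54 to 15.2 scaled FPKM in axonal and 2.84 to 11.1 scaled FPKM in somatodendritic libraries. Fibroblast markers, led by Pdgfra and Col1a1 and with Dcn and Fap at 0 in all libraries, summed to 5.11 to 14.4 scaled FPKM in axonal and 0.9497 to 12.9 scaled FPKM in somatodendritic libraries, with 1 to 6 of 10 above 0 in an axonal and 1 to 3 in a somatodendritic library. Pdgfra averaged 3.65 scaled FPKM on the axonal and 3.61 on the somatodendritic side. Col1a1 averaged 2.12 on the axonal and 0.484 on the somatodendritic side, Prrx1 1.93 and 0.596, and Postn 0.538 and 0.768. Col1a2, Col3a1, Lum and Twist1 averaged 0.115, 0.138, 0.411 and 0.0955 on the axonal side and 0 on the other. The sum thus leans on few genes of the list. Pericyte and smooth muscle markers, led by Notch3 and Cnn1 and with Actg2 at 0, summed to 4.17 to 29.7 scaled FPKM in axonal and 3.09 to 8.56 scaled FPKM in somatodendritic libraries, with 2 to 6 of 10 above 0 in an axonal and 1 to 4 in a somatodendritic library. Endothelial markers, led by Kdr and Vwf and with Cldn5 and Tek at 0, summed to 1.57 to 43.3 scaled FPKM in axonal and 0.884 to 4.89 scaled FPKM in somatodendritic libraries.

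In axonal replicates 1 to 6 the fibroblast sum was 14.4, 9.16, 7.66, 5.33, 12.3 and 5.11 scaled FPKM, and the pericyte and smooth muscle sum 5.58, 29.7, 9.18, 6.90, 16.5 and 4.17. Axonal replicate 6, lowest for most members, was also lowest for both lists by small margins, and for the skeletal muscle list. Axonal replicate 1 was highest for the fibroblast list, replicate 2 for the pericyte list and replicate 3 for the sum of the members. Other lists differed. The meningeal sum, which rested mainly on Zic1, was highest in axonal replicate 6. The endothelial sum was lowest in axonal replicate 5, and the astrocyte, Schwann cell and microglia sums in axonal replicate 1. In axonal replicates 1 to 6 the endothelial sum was 1.79, 43.3, 17.998, 25.6, 1.57 and 2.10 scaled FPKM. Meningeal markers, with Foxc1, Foxd1 and Aldh1a2 at 0 in all libraries, summed to 16.4 to 93.0 scaled FPKM in axonal and 51.0 to 85.4 scaled FPKM in somatodendritic libraries. The somatodendritic sum was Zic1 alone, since the other 7 were listed at 0 there. In axonal libraries Zic1 also made up most of it, with a mean of 40.8 and a range of 16.4 to 83.5 scaled FPKM. Ptgds came next there, with a mean of 2.96. The Zic1 mean was 64.3 on the somatodendritic side. The meningeal sum is thus mainly the level of 1 gene. Astrocyte and radial glia markers, led by Fabp7 and Aldoc, summed to 83.4 to 523 scaled FPKM in axonal and 263 to 420.5 scaled FPKM in somatodendritic libraries. Schwann cell and oligodendrocyte markers, led by Olig1 and Olig2, summed to 11.4 to 52.3 scaled FPKM in axonal and 9.85 to 58.4 scaled FPKM in somatodendritic libraries. Microglia and macrophage markers, led by Tyrobp and Cd68, summed to 4.01 to 226 scaled FPKM in axonal and 28.7 to 81.2 scaled FPKM in somatodendritic libraries. Skeletal muscle markers, led by Acta1 and Mylpf and with Myf5, Ckm and Tnnt3 at 0 in all libraries, summed to 0.112 to 17.0 scaled FPKM in axonal and 0.0482 to 28.0 scaled FPKM in somatodendritic libraries. Of the 98 markers listed, 49 passed the filter and were tested, and none of these was called by limma, beside 0.00708% of all genes tested that were called. The part of these cells, of depth or of single libraries in the members' levels was not tested.

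The members co-varied more closely across axonal than across somatodendritic libraries. Over the 45 pairs of members the median Pearson r of log2(scaled FPKM + 1) was 0.70 across the 6 axonal libraries and 0.11 across the 6 somatodendritic libraries. In axonal libraries 28 of the 45 pairs had an r above 0.5, against 9 in somatodendritic libraries, where Myl9 and Col6a1 were mostly listed at 0. The authors' lower bound was also 0 in all 6 somatodendritic libraries for Cald1, Thbs1 and S100a11, and in 5 for Tagln. The part of such low values in the lower somatodendritic r was not tested. These values are a description, since the libraries share their scaling and depth among all members. No r between other genes is set beside them. The closest axonal pair was Cald1 with Sparc (r = 0.98), followed by Fn1 with Sparc (0.97), Thbs1 with Cald1 (0.95) and Tagln with Myl9 (0.95). Acta2 was closest to Tagln (0.77), and Tpm1 to Tagln (0.80). Col6a1 stood apart, with a median r of -0.23 with the other members. By role, the median axonal r was 0.74 among the contractile members (10 pairs) and 0.49 between contractile and matrix members (20 pairs). The 6 matrix pairs fell apart into 3 without Col6a1 (0.88, 0.91 and 0.97) and 3 with it (-0.47, -0.21 and -0.055), around a median of 0.41. Without axonal replicate 6 the axonal median over all pairs was 0.50.

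**Figure D4:**
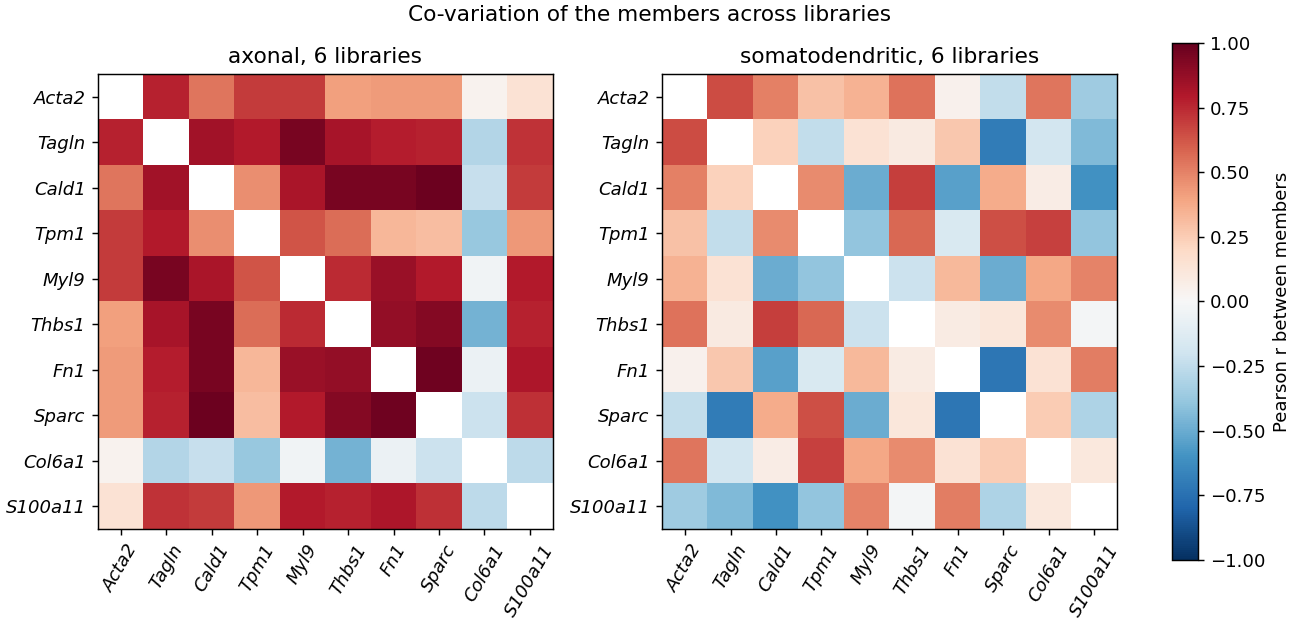
Pearson r of log2(scaled FPKM + 1) between each pair of members across 6 axonal libraries (left) and 6 somatodendritic libraries (right). Most axonal pairs other than those with Col6a1 are positive, with a median over all pairs of 0.70, against 0.11 on the somatodendritic side.

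Among the protein-coding genes of mean scaled FPKM of at least 5 whose levels most resembled the mean z-score of the members over the 12 libraries were Nes, Igfbp2, Ifitm3, Podxl, Cyr61, Col12a1 and Arid4a, with Pearson r of 0.90 to 0.84. The median r of the 7487 genes ranked was 0.06, and 19 reached 0.8. The members were chosen for a high axonal level, so this profile largely follows the compartments. The ranking therefore favours genes higher on the axonal side, and the differences given next are a description that it built in. Nes encodes nestin, an intermediate filament protein of neural progenitors, and averaged 9.41 ± 3.59 scaled FPKM on the axonal side and 2.70 ± 1.05 on the somatodendritic side (SD, n = 6 each). Igfbp2, a secreted binding protein of insulin-like growth factors, averaged 95.8 ± 91.0 scaled FPKM on the axonal side and 12.4 ± 6.68 on the somatodendritic side (SD, n = 6 each). Col12a1, a fibril-associated collagen, averaged 11.4 ± 11.3 scaled FPKM on the axonal side and 1.49 ± 0.777 on the somatodendritic side (SD, n = 6 each). Podxl, a cell-surface sialomucin, and the interferon-induced membrane protein gene Ifitm3 ranked between these. Arid4a, a chromatin regulator, had a narrow spread between axonal libraries, with 8.21 to 15.3 scaled FPKM in axonal and 3.16 to 8.35 scaled FPKM in somatodendritic libraries.

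Among 6 lists of genes related to the members by role, members left out, 130 genes were tested between the compartments. The lists were chosen with earlier results of these data known. Their shares, here and list by list below, are therefore a description and no independent support for the members. With limma's moderated test and Benjamini-Hochberg adjustment none was called in either direction, beside 0.00708% of all genes tested that were called higher and 0% called lower. The lowest adjusted p of the 130 by limma was 0.341, for Serpinh1. At an unadjusted p below 0.05 by limma 44 were higher and 1 was lower, which is 33.8% higher, beside 6.27% of all genes tested that were higher and 2.56% that were lower. Their median log2 difference was 0.99, beside 0.20 over all genes, and no related gene had groups that did not overlap, where 0.418% of all genes did so with axonal libraries higher and 0.29% with axonal libraries lower. Without axonal replicate 6 the count of higher genes at unadjusted p was 58, within replicates 3 to 6 alone it was 22 and within replicates 1 and 2 alone 27, while 6.87% of all genes were higher in the fit without axonal replicate 6 4.34% within replicates 3 to 6 and 3.91% within replicates 1 and 2.

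Of 39 contractile and actin-binding genes tested, 11 were higher and 1 lower at an unadjusted p below 0.05, with a median log2 difference of 0.86. Over all genes tested 6.27% were higher and 2.56% lower, the shares to set beside this list and each list below. Vim, the intermediate filament vimentin, averaged 252 ± 153 scaled FPKM on the axonal side and 80.6 ± 35.7 on the somatodendritic side (SD, n = 6 each; limma adjusted p = 0.388, and 0.0936 to 0.787 under the alternatives). Actb and Actg1 encode the cytoplasmic actins. Actb averaged 1820 ± 272 scaled FPKM on the axonal side and 1607 ± 332 on the somatodendritic side (SD, n = 6 each), and its log2 difference of 0.20 turned negative with FPKM as deposited (-0.062) and within replicates 1 and 2 (-0.020). Actg1 averaged 271 ± 64.5 scaled FPKM on the axonal side and 358 ± 60.8 on the somatodendritic side (SD, n = 6 each; limma adjusted p = 0.544, and 0.417 to 0.787 under the alternatives), and it was the single related gene lower at unadjusted p.

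Of 21 regulators and targets of serum response factor, YAP and TGF-beta tested, 8 were higher and none lower at unadjusted p, with a median log2 difference of 1.06. Cyr61, a matricellular YAP target, averaged 37.8 ± 43.8 scaled FPKM on the axonal side and 4.01 ± 4.68 on the somatodendritic side (SD, n = 6 each; limma adjusted p = 0.362, and 0.116 to 0.764 under the alternatives). Cyr61 was highest, at 125 scaled FPKM, in axonal replicate 3 and lowest, at 3.01, in axonal replicate 6, the library lowest for 7 of the 10 members. Amotl2, another YAP target, averaged 37.0 ± 29.5 scaled FPKM on the axonal side and 12.4 ± 6.49 on the somatodendritic side (SD, n = 6 each), and Smad4, the shared partner of TGF-beta signalling, averaged 52.4 ± 19.1 on the axonal side and 36.2 ± 18.9 on the somatodendritic side. The log2 difference of Smad4 was 0.62 over all libraries and -0.14 within replicates 1 and 2.

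Of 33 matrix genes tested, 13 were higher and none lower at unadjusted p, with a median log2 difference of 1.10. Lgals1, the matrix lectin galectin 1, averaged 93.8 ± 65.9 scaled FPKM on the axonal side and 15.8 ± 12.2 on the somatodendritic side (SD, n = 6 each; limma adjusted p = 0.358, and 0.272 to 0.787 under the alternatives). Spp1, osteopontin, ranged from 2.61 to 295 scaled FPKM in axonal and from 17.7 to 95.6 scaled FPKM in somatodendritic libraries, so its groups overlapped fully. Of 14 genes of collagen processing and matrix turnover tested, 9 were higher and none lower at unadjusted p, with a median log2 difference of 1.30. Serpinh1, the collagen chaperone, averaged 16.9 ± 13.3 scaled FPKM on the axonal side and 2.13 ± 2.96 on the somatodendritic side (SD, n = 6 each). P4hb, a subunit of collagen prolyl hydroxylase, averaged 155 ± 58.9 scaled FPKM on the axonal side and 94.7 ± 28.6 on the somatodendritic side (SD, n = 6 each), and the collagen lysyl hydroxylase Plod3 averaged 51.0 ± 35.7 on the axonal side and 21.1 ± 13.2 on the somatodendritic side. Timp2, an inhibitor of metalloproteinases, averaged 45.8 ± 27.1 scaled FPKM on the axonal side and 23.6 ± 9.19 on the somatodendritic side (SD, n = 6 each).

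Of 18 matrix receptors tested, 2 were higher and none lower at unadjusted p, with a median log2 difference of 0.44. Beside 6.27% higher over all genes tested, 2 genes are too few to read as a result about the list. The syndecan Sdc3 averaged 120 ± 41.3 scaled FPKM on the axonal side and 163 ± 44.6 on the somatodendritic side (SD, n = 6 each), the endocytic receptor Lrp1 averaged 79.4 ± 31.2 on the axonal side and 52.7 ± 26.1 on the somatodendritic side, and the fibronectin receptor subunit Itgb1 averaged 57.2 ± 24.1 on the axonal side and 45.3 ± 24.5 on the somatodendritic side. Of 5 tested genes of the S100 list, 1 was higher and none lower at unadjusted p, with a median log2 difference of 0.88. Likewise, 1 gene is too few to read as a result about that list. S100a10, the annexin A2 partner, averaged 30.5 ± 17.3 scaled FPKM on the axonal side and 12.1 ± 12.1 on the somatodendritic side (SD, n = 6 each). S100a1 averaged 17.8 ± 27.7 scaled FPKM on the axonal side and 2.32 ± 3.69 on the somatodendritic side (SD, n = 6 each), with 2 axonal and 4 somatodendritic libraries listed at 0. For S100a1 the log2 difference was 1.63 over all libraries, -0.99 within replicates 1 and 2 and 0.91 without axonal replicate 4. S100pbp, which binds an S100 protein, averaged 17.2 ± 10.7 on the axonal side and 9.82 ± 3.64 on the somatodendritic side.

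**Figure D5:**
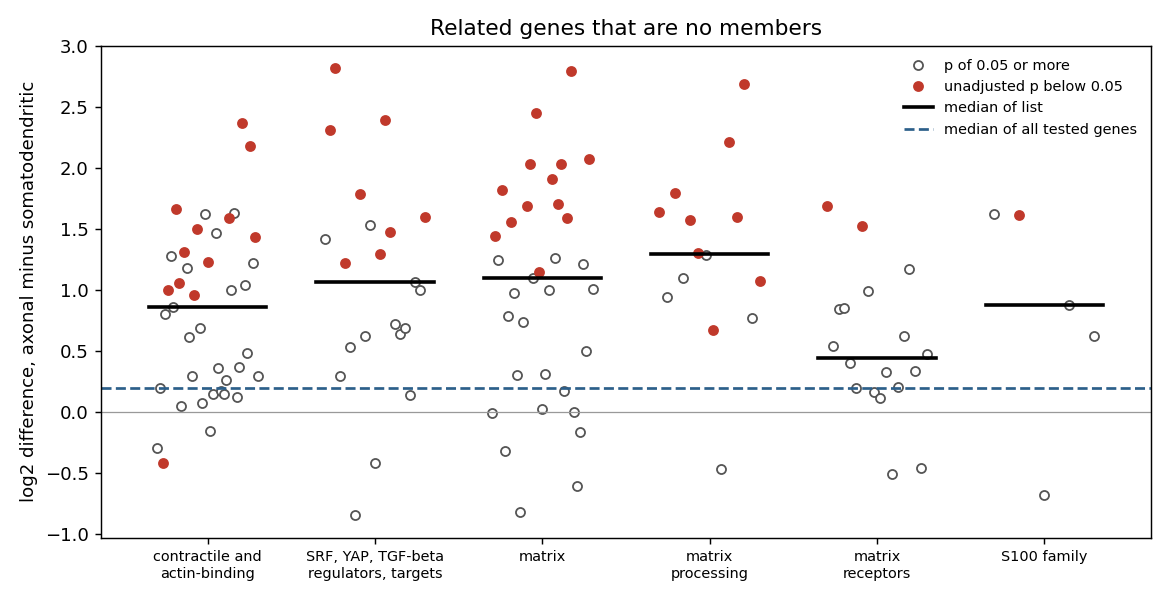
Log2 difference, axonal minus somatodendritic, of each tested gene in the 6 related lists; filled points have an unadjusted limma p below 0.05, bars are list medians and the dashed line is the median of all genes tested (0.20). The processing list has the highest median, 1.30, and the receptor list the lowest, 0.44.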

How the data were processed

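Processed tables of 12 libraries were used, grouped and numbered by their titles. The authors deposited FPKM values per gene with lower and upper confidence bounds, in the Cufflinks layout, per the file headers. The submitters' processing notes list GRCm38, Cufflinks 2.2.1 and FastQC 0.10.1, and the labels' protocols the Arcturus PicoPure kit. The sources used here do not give aligner settings, annotation release, strand or the treatment of reads with several matches. FPKM is relative to a library's own total, and these values are not counts, so no count test was run and depth in reads is unknown.

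Scale factors were medians of ratios to the geometric mean, taken over 5607 genes listed above 0 everywhere. Genes with a mean of at least 1 scaled FPKM were kept (14122 of 39174). The test was limma 3.58.1 on log2(scaled FPKM + 1) (R 4.3.3; trend, robust, compartment as the only term, two-sided, Benjamini-Hochberg at 0.05), and this scale understates the change of low genes. The procedure was tested on simulated data. Other values were computed in Python 3.11.15 with pandas 2.3.3, and figures were drawn with matplotlib 3.10.9. Alternatives were other scalings, pseudocounts and filters, a replicate block, a term for or a split by replicates 1 and 2 against 3 to 6, and leaving out each library.

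The members and lists were chosen with earlier results of these data known. Named are the 10 members, the 3 related genes of highest mean in each list, any called, the 2 markers of highest mean in each marker list, and the 8 genes most like the members, of which 1 is not reported here. Those of lowest adjusted p (Serpinh1), the paralogs, genes sharing sequence, markers at 0 and the other fibroblast markers were added after their values were seen. Coordinates were taken from the deposited tables and turned to 1-based starts. GENCODE M21 served for transcripts and RefSeq for promoters.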

Additional observations from a re-analysis of the deposited data

Results flagged for a closer look

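Of 56 groups of 6 values checked, 6 had a library far from the other 5. Chance flags about 1 in 20 groups of normally distributed values, a rate that need not hold here, where many values are listed at 0. S100a11 was 5.97 scaled FPKM in axonal replicate 6, where the other axonal libraries held 43.8 to 89.6. Col6a1 was 0.931 scaled FPKM in somatodendritic replicate 3 and listed at 0 in the other somatodendritic libraries, a pattern that this check always flags. Amotl2 was listed at 0 in somatodendritic replicate 4, where the others held 11.9 to 18.4 scaled FPKM. Sparcl1 was 33.2 scaled FPKM in somatodendritic replicate 4, where the others held 109 to 152. Plod3 was listed at 0 in somatodendritic replicate 4, where the others held 15.8 to 39.8 scaled FPKM. Spp1 was 17.7 scaled FPKM in somatodendritic replicate 1, where the others held 57.7 to 95.6. Somatodendritic replicate 4, which gave 3 of the 6, also had the fewest genes at 1 FPKM or more, 7273.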

How the results depend on the processing

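Over all genes tested, limma called 1 gene between the compartments, and the number moved to 3 with a pseudocount of 0.1, 5 with the replicate block (3 higher, 2 lower), 8 with a term for replicates 1 and 2 (4 higher, 4 lower), 7 within replicates 3 to 6, 4 within replicates 1 and 2, and between 1 and 11 when 1 library was left out (11 without axonal replicate 6, 3 without the first axonal library, and 2 without the second or the fourth). The labels do not say whether the replicate numbers pair the libraries. Deviations of same-numbered libraries correlated at 0.00041 to 0.242 and 3 of 6 matched their own number best, which does not settle it. The block changed no call of a related gene, and the number of related genes called was 0 in every fit.

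The median log2 difference of the members was 3.58 within replicates 1 and 2 and 2.30 to 2.90 when 1 library was left out. The axonal co-variation ran from 0.50 to 0.79 when 1 library was left out. All 217 log2 differences of single members under the alternatives were above 0. The same libraries chose the members for a high axonal level, so this sign is no test. Of the 217 values, 9 moved by more than the spread between libraries. These were Acta2 (3.93), Tagln (3.91), Cald1 (3.69) and Fn1 (3.48) within replicates 1 and 2, and 5 values of Col6a1 and Myl9 that rest on libraries listed at 0, with another pseudocount or within replicates 1 and 2, and that are not given for that reason. Of 396 values of related genes, 7 reversed: Actb with FPKM as deposited (-0.062) and within replicates 1 and 2 (-0.020), Smad4 (-0.14) and S100a1 (-0.99) within replicates 1 and 2, and Spp1 within replicates 3 to 6 (0.61) and without replicate 1 (0.61) or 2 (0.022) of the axonal side. Over all libraries left out in turn its values ran from -0.66 to 0.61. The cause was not tested. The median over all genes was 0.001 for FPKM taken as deposited and 0.05 after rescaling to a common coding sum, against 0.20 in the values given above, and the related genes higher at unadjusted p ran from 22 to 58 over the alternatives. Low fragment numbers in somatodendritic libraries limit the members near 0.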
